A study of Homo sapiens with 121 samples.

Results

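Single human embryonic stem cells (hESCs) whose telomeres had been classed as long were compared with those classed as medium, gene by gene across the transcriptome. The 106 cells were chosen by their labels, which name 81 cells Long and 25 cells Medium, out of 121 cells in all. The 15 cells labelled Short were not part of the comparison and appear below only as values set beside it. The comparison was also made on the 65 cells with more than 8000 genes above a TPM of 1, which were 51 long and 14 medium cells, and beside it on the other 41 cells, which were 30 long and 11 medium cells. TPM is the length-normalised share of a cell's transcripts that a gene holds, scaled to 1 fixed total per cell. These sets are called gene-rich and gene-poor cells, and a gene above TPM 1 is called detected.

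The study separated polyadenylated RNA from genomic DNA in each cell, sequenced the RNA by a Smart-seq2 protocol, and measured telomere repeats against Alu repeats in the DNA of the same cell by quantitative PCR. Long and medium are classes of that ratio. All cells came from WA26, an established hESC line, grown undifferentiated and without feeder cells on Matrigel in E8 medium. They were passaged with EDTA and a ROCK inhibitor (Rocki). Both groups therefore shared line, medium and culture protocol and carried no edited allele, and no other treatment is named. The labels name no culture, plate or day for a cell, so each group counted as 1 sample, no test was made, and the errors below are the spread between cells.

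Telomeres are the repeated DNA ends of chromosomes, covered by the shelterin proteins TERF1, TERF2, POT1, TERF2IP, TINF2 and ACD. Telomerase, a reverse transcriptase with its own RNA template, adds repeats to them and is active in pluripotent stem cells. Pluripotency in hESCs rests on the transcription factors POU5F1, SOX2 and NANOG, and on Nodal and FGF signalling.

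Both groups had the transcriptome of hESCs. The summed level of 12 core pluripotency genes had a median of 3306 TPM in long cells (range 1325 to 4667) and 2970 TPM in medium cells (range 981.4 to 4244). Markers of other cell types were far lower. The medians of their summed TPM in long and medium cells were 6.54 and 5.44 for 7 fibroblast genes, 1.16 and 2.32 for 8 trophoblast genes, 2.71 and 3.69 for 7 neural progenitor genes, and 1.47 and 0.62 for 9 mesendoderm genes. No gene of those 4 lists reached a mean TPM of 10, and 2, 2, 2 and 1 of their members were never detected. The highest single-cell sum over these lists was 247 TPM, for the neural list in a medium cell.

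The 2 groups were close in the number of genes seen per cell. Long cells had 8296 ± 2152 detected genes (SD, n = 81; lowest 4002, median 9165, highest 11515) and medium cells 7980 ± 2070 (SD, n = 25; lowest 4189, median 8626, highest 10481). In 54.9% of the 2025 pairs of a long and a medium cell, the long cell had more. Within gene-rich cells the means were 9791 ± 751 and 9625 ± 671, and within gene-poor cells 5755 ± 1096 and 5886 ± 1044. The groups overlapped over nearly their whole ranges. No 2 cells held identical values, and the highest correlation of any 2 was 0.924. Read totals were not analysed here, so no depth is given for a single TPM.

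**Figure D1:**
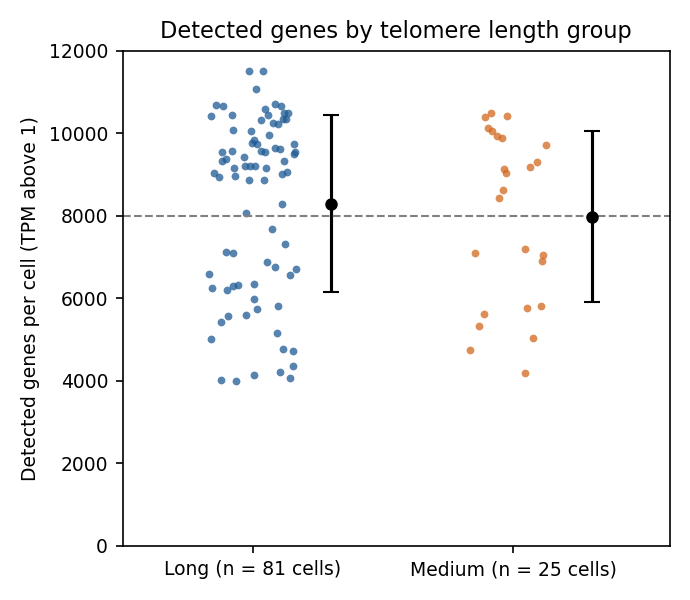
Number of genes above TPM 1 in each cell (y axis) for long (blue) and medium (orange) telomere cells, with mean and SD in black and the border of 8000 genes as a dashed line. Both groups spread from about 4000 genes upwards, with means of 8296 and 7980.

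Across the 6128 genes that averaged 10 TPM or more over the 106 cells, long and medium cells differed little. The difference of group means on the log2(TPM + 1) scale had a median of 0.14 and ran from -1.61 to 2.42, and no gene differed by more than the larger of its SDs across cells. A scale with 1 added to each TPM understates the difference of low genes. The typical SD was 1.88 in long and 1.93 in medium cells. At a difference of 1 or more, which is the size used below to call a gene, 111 genes (1.81%) were higher in long cells and 41 genes (0.669%) were higher in medium cells, so that 73.0% of the calls favoured long cells. With the number of detected genes as a covariate, 51 and 62 genes were called and 45.1% of the calls favoured long cells. Of all 6128 genes, 65.4% were higher in long and 34.6% in medium cells, which is the background for the gene lists below.

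**Figure D2:**
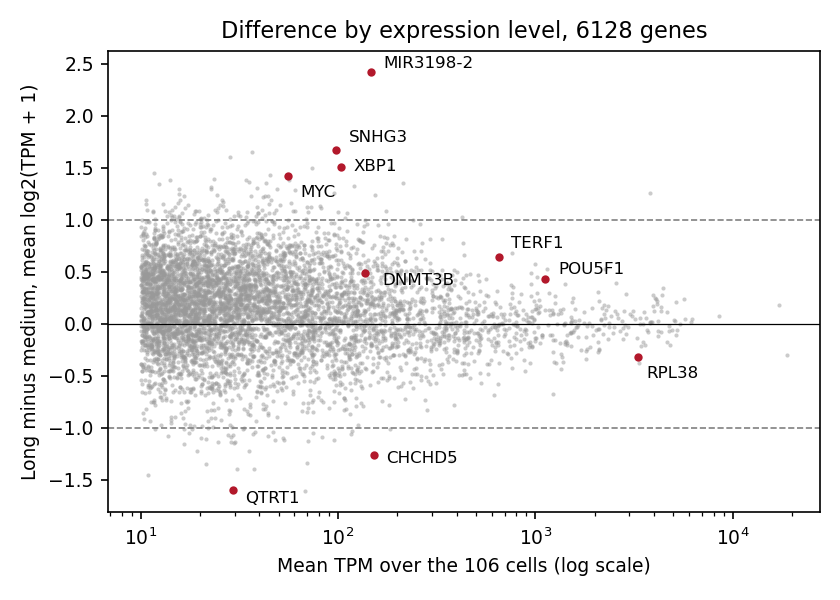
Difference of mean log2(TPM + 1), long minus medium (y axis), against the mean TPM over 106 cells on a log scale (x axis), 1 point a gene, with named genes in red and dashed lines at a difference of 1 either way. Most of the 6128 genes lie between the dashed lines, and TERF1, DNMT3B and POU5F1 are abundant genes with differences of 0.65, 0.49 and 0.44.

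Gene-rich cells were more alike. Their median difference was 0.04, with a range from -1.75 to 2.82, the typical SD was 1.03 in both groups, and 84 genes (1.37%) were called higher in long and 41 (0.669%) higher in medium cells. Among gene-poor cells, with SDs near 2.39 and 2.31, calls came to 678 (11.1%) and 477 (7.78%). Of all genes, 55.0% were higher in long and 44.9% in medium cells of the gene-rich set, and 55.1% and 44.9% in the gene-poor set. The median correlation of expression between cells was 0.856 within long, 0.855 within medium and 0.855 between long and medium cells of the gene-rich set, and 0.661, 0.662 and 0.662 in the gene-poor set. By this measure, within each set, a long cell resembled a medium cell as closely as it resembled another long cell.

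The differences of gene-rich cells hardly recurred in gene-poor cells, which are other cells of the same groups. The sign was the same for 52.0% of the 6128 genes, and across genes, which are not independent replicates, Pearson's r was 0.04 and Spearman's coefficient 0.04. Among the 1367 genes averaging 100 TPM or more the sign was the same for 51.1%. Of genes called higher in long cells, 13 were called in both sets, which is 15.5% of the 84 gene-rich and 1.92% of the 678 gene-poor calls. Of genes called higher in medium cells, 3 were called in both, which is 7.32% of 41 and 0.629% of 477. Over all genes, 11.1% were called higher in long and 7.78% higher in medium gene-poor cells, and 1.37% and 0.669% in gene-rich cells, so the overlap lay at the background for medium cells and slightly above it for long cells.

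**Figure D3:**
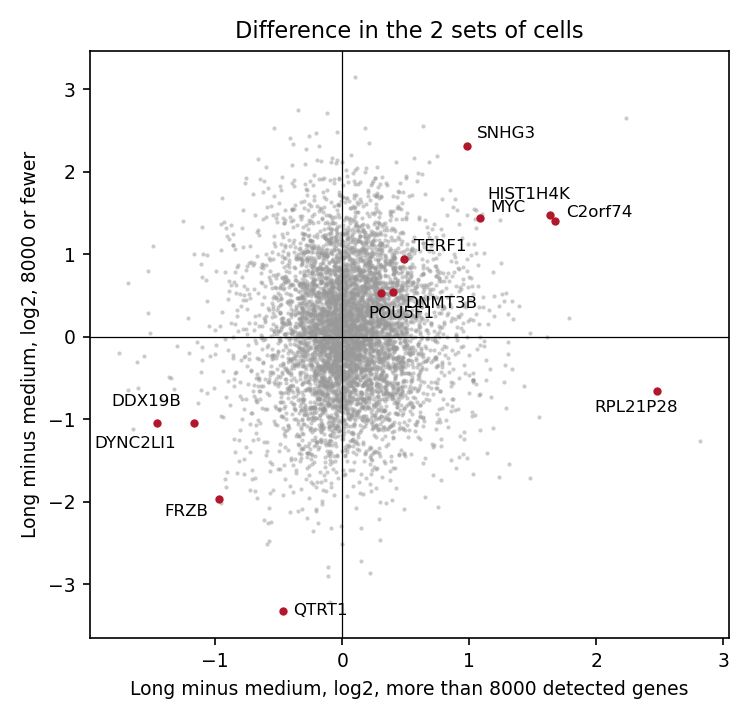
Difference of mean log2(TPM + 1), long minus medium, in the 65 gene-rich cells (x axis) and in the 41 gene-poor cells (y axis), 1 point a gene, with named genes in red. The cloud of 6128 genes has no slope visible by eye, and TERF1, SNHG3, MYC and C2orf74 lie in the quadrant higher in long cells while FRZB, DYNC2LI1 and DDX19B lie in the quadrant higher in medium cells.

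TERF1, the shelterin protein that binds double-stranded telomere repeats and limits telomere lengthening, was the gene that separated the groups best by pairs of cells. Its log2 level ran from 8.42 over a median of 9.28 to 11.15 in long cells and from 7.18 over 8.52 to 10.48 in medium cells, corresponding to median TPM of 620 and 365. The ranges overlapped widely, but the lowest medium cells lay below every long cell. The group means were 9.34 ± 0.57 and 8.69 ± 0.82 (SD, n = 81 and 25), a difference of 0.65, and the long cell was higher in 76.3% of pairs. No other of the 6128 genes had a higher percentage, an ordering chosen after the values were seen. TERF1 differed by 0.49 in gene-rich and by 0.94 in gene-poor cells. The 15 short cells had a mean TERF1 level of 7.42 ± 1.60, below that of both groups. The study picked TERF1 out on these same cells, so its place is a description and not independent evidence.

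The other shelterin genes were much lower and were detected in only a part of the cells. TINF2, which ties the complex together, had means of 2.68 ± 2.24 in long and 2.22 ± 1.93 in medium cells and was detected in 65.4% of long cells (95% interval 54.0 to 75.7) and 64.0% of medium cells (42.5 to 82.0). These intervals are exact Clopper-Pearson intervals and cover counting error only. ACD, which recruits telomerase, was 0.89 higher in long cells over all cells, but -0.09 in gene-rich and 2.12 in gene-poor cells. TERF2IP differed by 0.09, 0.55 and -0.80. TERF2 and POT1 stayed below a mean TPM of 10, with differences of 0.31 and 0.15. All 4 shelterin genes past the minimum were higher in long cells, against 3 of 4 in gene-rich and 2 of 4 in gene-poor cells, and none was called over all cells. The shares of all genes were 65.4%, 55.0% and 55.1%, and a list of 4 genes is too short to be told apart from them. TINF2 shares exon sequence with GMPR2 on the other strand, and this protocol does not keep strand.

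Telomerase components and assembly factors lay below the background as a list over all cells. The catalytic subunit TERT and the template RNA TERC stayed below a mean TPM of 10. Only polyadenylated RNA was captured, so the value of TERC is no measure of its total level. Of the 11 list members past that minimum, 4 were higher and 7 lower in long cells, with a median of -0.06, and none was called over all cells. Of all genes, 65.4% were higher in long cells, with a median of 0.14. DKC1, the pseudouridine synthase that stabilises the telomerase RNA, was 0.58 higher in long cells (0.25 in gene-rich, 1.02 in gene-poor cells), while its partners NOP10 and NHP2 had -0.37 and -0.22. In the list of 5 genes for replication and processing of telomeres, TEN1, a subunit of the CST complex, had -0.39 and BLM, a helicase, had 0.07.

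POU5F1, the core factor of pluripotency, was the most abundant of the transcription factors followed here. Its log2 level was lowest at 7.50, median 10.29 and highest at 10.94 in long cells, and 6.26, 9.95 and 10.63 in medium cells. The groups overlapped, with the medium group reaching lower. The means were 10.12 ± 0.57 and 9.68 ± 1.01, the difference was 0.44, and the long cell was higher in 67.0% of pairs and in 72.7% of gene-rich pairs. POU5F1 and NANOG have near-identical processed copies elsewhere in the genome, and HTSeq and RSEM, both named for the counting, treat reads shared among copies differently.

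NANOG and SOX2 showed less. NANOG had medians of 7.69 in long and 7.64 in medium cells and means of 7.43 ± 1.32 and 7.12 ± 1.54, with the long cell higher in 55.6% of pairs and a difference of 0.08 in gene-rich cells. SOX2 had means of 5.58 ± 1.48 and 5.27 ± 1.92, differing by 0.31 over all cells and in gene-rich cells, and by 0.09 in gene-poor cells. For comparison, short cells had means of 4.21 ± 2.73 for NANOG, 4.33 ± 2.66 for SOX2 and 9.19 ± 0.98 for POU5F1.

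Of the 10 core pluripotency genes past the minimum, 9 were higher in long cells, with a median of 0.34, against 65.4% of all genes and their median of 0.14. All 10 were higher in gene-rich cells, by a median of 0.12, and 7 of 10 in gene-poor cells, by 0.50. None was called over all cells. SALL4, a zinc finger factor, differed by 0.77, 0.40 and 0.96 in all, gene-rich and gene-poor cells, and TDGF1, the Nodal co-receptor, by 0.69, 0.18 and 1.27. LIN28A, which blocks let-7 maturation, was level at -0.06 and PRDM14, a repressor of differentiation, had 0.11. Over the wider PluriNet, a protein network of pluripotent cells, 164 of 256 measured genes past the minimum were higher in long cells with a median of 0.12, near the background, and 133 of 256 in gene-rich cells.

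Of 5 genes linked to the naive state past the minimum, 3 were higher in long cells over all cells, 1 in gene-rich and 4 in gene-poor cells. DPPA3 had -0.13, -0.92 and 0.79 in all, gene-rich and gene-poor cells, ZFP42 (REX1) had 0.24, 0.08 and 0.27, and the list had medians of 0.03, -0.23 and 0.27. KLF17, KLF4, TBX3 and ESRRB stayed below a mean TPM of 10. Among early lineage genes only NES and OTX2 passed, with 0.10 and 0.12.

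DNMT3B, the de novo DNA methyltransferase abundant in undifferentiated hESCs (chr20:31350191-31397165 on GRCh37, plus strand), gave a steadier separation. Its log2 level ran from 0.72 over 7.17 to 8.67 in long cells and from 4.55 over 6.86 to 8.02 in medium cells. A single long cell held the value of 0.72, and the rest of the 2 distributions overlapped with the medium cells lower. Means were 7.02 ± 0.99 and 6.53 ± 0.83, and the difference of 0.49 was 0.40 in gene-rich and 0.55 in gene-poor cells. The long cell was higher in 72.9%, 74.4% and 70.3% of pairs. DNMT1, the maintenance enzyme, had -0.31, 0.09 and -0.88, and TET1, which oxidises methylcytosine, 0.52, 0.26 and 0.62.

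**Figure D4:**
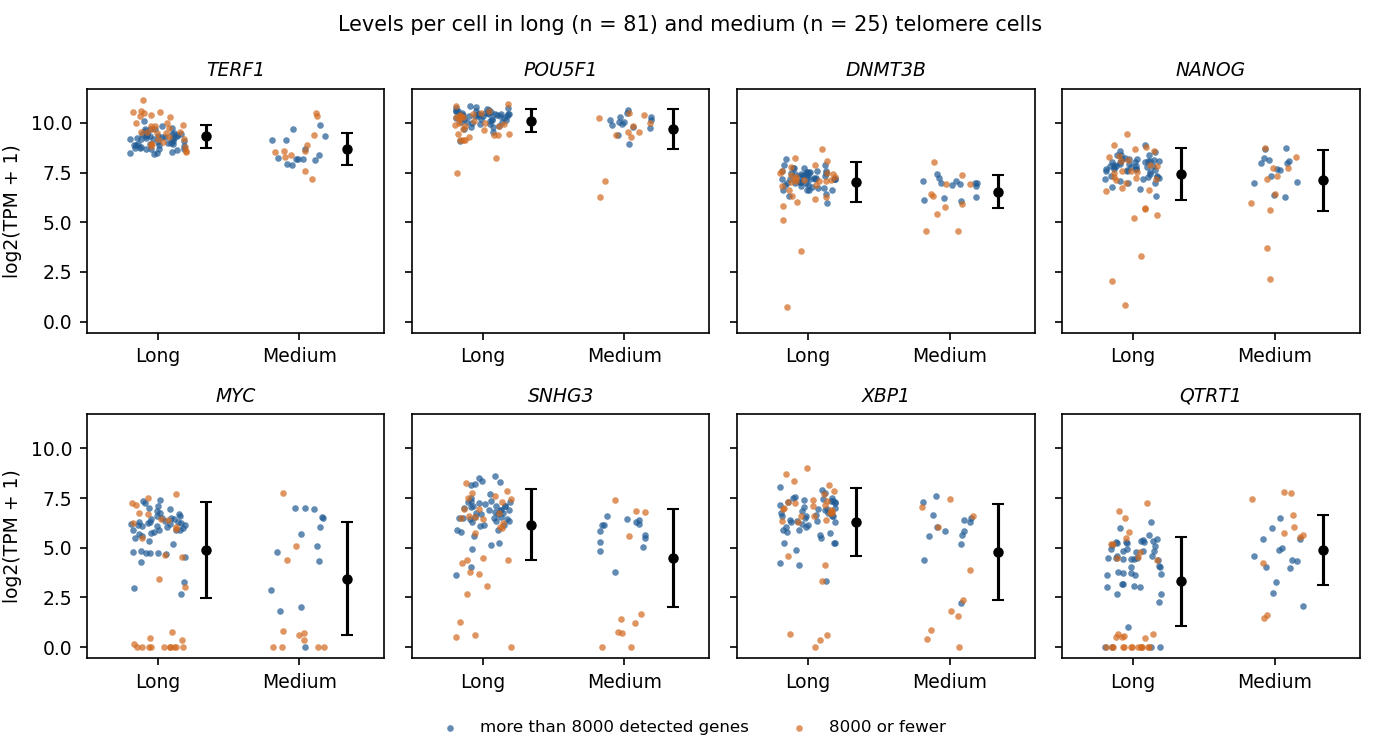
Level of 8 genes in each cell as log2(TPM + 1) (y axis) for long and medium telomere cells, gene-rich cells in blue and gene-poor cells in orange, with mean and SD over all cells of the group in black. TERF1, POU5F1 and DNMT3B are narrow distributions shifted by 0.65, 0.44 and 0.49, whereas MYC, SNHG3, XBP1 and QTRT1 contain cells at or near 0.

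MYC, the growth-promoting transcription factor, was among the genes called in both sets of cells. It was detected in 67 of 81 long cells, or 82.7% (72.7 to 90.2), and in 16 of 25 medium cells, or 64.0% (42.5 to 82.0). Cells at 0 occurred in both groups, and the intervals overlap. MYC means were 4.87 ± 2.42 and 3.45 ± 2.83, and the difference of 1.42 was 1.08 in gene-rich and 1.44 in gene-poor cells, with the long cell higher in 63.1% of pairs. MYCN, its paralogue, went the other way with -0.65, -0.09 and -1.78.

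SNHG3, a small nucleolar RNA host gene on chromosome 1 (28832492 to 28837404, plus strand), had the largest difference in favour of long cells among genes not ranked apart as short RNAs. Its median was 6.57 in long cells and 5.57 in medium cells (94.3 and 46.5 TPM), within ranges from 0 to 8.63 and from 0 to 7.40. Means were 6.17 ± 1.79 and 4.50 ± 2.47, and the difference of 1.67 was 0.98 in gene-rich and 2.31 in gene-poor cells. In gene-rich cells the long cell was higher in 82.2% of pairs, the highest percentage of any gene there. RCC1, which shares exon sequence and strand with SNHG3, differed by 0.51, -0.01 and 0.84.

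Host genes of this kind, a list taken by its symbol after the values were seen, pointed both ways. Of 17 past the minimum, SNHG3 among them, 13 were higher in long cells with a median of 0.28, and in gene-poor cells 9. SNHG19 had 1.50, 0.89 and 1.67 in all, gene-rich and gene-poor cells. SNHG12 had 1.14, 1.11 and 0.49, and shares exon sequence with TRNAU1AP on the other strand (-0.07). SNHG5 had -0.87, -0.00 and -2.52, so its difference lay in the gene-poor cells.

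XBP1, a transcription factor of the unfolded protein response, was detected in 95.1% of long cells (87.8 to 98.6) and 88.0% of medium cells (68.8 to 97.5). Its means were 6.30 ± 1.73 and 4.79 ± 2.40, a difference of 1.51, which was 0.64 in gene-rich and 2.55 in gene-poor cells. All 6 genes of the endoplasmic reticulum and amino acid stress list past the minimum were higher in long cells, with a median of 0.38, and all 6 in gene-rich cells with 0.41, against 55.0% of all genes in that set. In gene-poor cells 4 of 6 were, with 0.27. CHAC1, which degrades glutathione, had 0.95, 1.11 and 0.36, and ATF4 and HSPA5, a stress-response factor and the main chaperone of the endoplasmic reticulum, had 0.10 and 0.14 over all cells, and ATF4 had -0.70 in gene-poor cells.

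Further genes called higher in long cells in both sets were C2orf74, RGS14 and FASTKD3. C2orf74 was detected in 71.6% of long cells (60.5 to 81.1) and in 36.0% of medium cells (18.0 to 57.5), and its median TPM was 13.8 in long cells and 0 in medium cells. Its differences were 1.66, 1.68 and 1.41 in all, gene-rich and gene-poor cells. RGS14, a regulator of G protein signalling, was detected in 72.8% (61.8 to 82.1) and 40.0% (21.1 to 61.3), with 1.45, 1.24 and 1.41. FASTKD3, a mitochondrial RNA-binding protein, was detected in 65.4% (54.0 to 75.7) and 32.0% (14.9 to 53.5), with 1.39, 1.10 and 1.49. These 3 genes were chosen for the size of their differences in both sets, and their detection shares only describe them.

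Among genes higher in medium cells, QTRT1, the catalytic subunit of the enzyme that places queuosine in transfer RNA, had the largest difference outside the short RNAs. It was detected in all 25 medium cells (86.3 to 100) and in 58 of 81 long cells, or 71.6% (60.5 to 81.1). The lowest, median and highest log2 levels were 0, 4.08 and 7.25 in long cells and 1.45, 5.01 and 7.81 in medium cells. Every medium cell was above 0, while the remaining long cells stood at or below TPM 1. QTRT1 means were 3.31 ± 2.22 and 4.90 ± 1.76, and the long cell was higher in 29.7% of pairs. The difference of -1.60 was -0.47 in gene-rich and -3.33 in gene-poor cells, so most of it lay in the gene-poor cells.

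DYNC2LI1, a light intermediate chain of the dynein that moves cargo in cilia, was called higher in medium cells in both sets, with -1.22, -1.46 and -1.05. FRZB, a secreted WNT antagonist, was detected in 18.5% of long cells (10.8 to 28.7) and 48.0% of medium cells (27.8 to 68.7). Its differences were -1.45, -0.97 and -1.97. HAPLN1, a link protein of hyaluronan matrix, had -1.22, -0.91 and -1.83, and FAM104B had -1.39, -0.96 and -2.02. DDX19B, an RNA helicase of messenger RNA export, had -1.17 in gene-rich and -1.05 in gene-poor cells. These 5 genes were chosen by the rule for differences that recur in both sets, so their common direction is not a finding.

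VRK2, a serine/threonine kinase, differed in the gene-rich set. There its means were 3.44 ± 1.57 in long and 5.00 ± 0.87 in medium cells, the difference was -1.56, and the long cell was higher in 18.1% of pairs, the lowest of any gene. In gene-poor cells the difference was -0.24. VRK2 shares exon sequence with FANCL on the other strand (-0.01 in gene-rich cells).

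By their medians over all and gene-rich cells, G2 and mitosis genes lay above the background and S-phase genes below it. Medians of all genes were 0.14, 0.04 and 0.08 over all, gene-rich and gene-poor cells. The shares of all genes higher in long cells were 65.4%, 55.0% and 55.1%. Of 23 genes of G2 and mitosis, 22 were higher in long cells with a median of 0.32, 18 in gene-rich cells with 0.22 and 15 in gene-poor cells with 0.20. Cell by cell the groups hardly separated. The mean log2 level of the list was 5.57 ± 1.22 in long and 5.19 ± 1.54 in medium cells, with the long cell higher in 55.4% of pairs. The median summed TPM was lower in long cells, at 2540 against 2891. AURKB, the kinase of the chromosomal passenger complex, was the member called, with means of 6.91 ± 1.96 and 5.83 ± 2.65 and differences of 1.09, 0.44 and 1.76. CDC20, the activator of the anaphase-promoting complex, had 0.97, 0.18 and 1.99, and CDK1 had -0.26. Of 21 genes of DNA replication and S phase, 15 were higher in long cells with a median of 0.08, and 10 in gene-rich cells with -0.05. TYMS, which makes thymidylate, had 0.71 and ORC1, of the origin recognition complex, had -0.41. Members of a list are measured in the same cells and their levels move together, so a count of members is not a count of independent observations.

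DNA repair lists differed among themselves. For homologous recombination and the damage checkpoint, 8 of 9 genes were higher in long cells with a median of 0.31. In each set 6 of 9 were, with 0.26 in gene-rich and 0.11 in gene-poor cells. The shares of all genes were 65.4%, 55.0% and 55.1%, with medians of 0.14, 0.04 and 0.08. In gene-poor cells the list's median thus lay near that of all genes. CHEK2, a checkpoint kinase, had 0.74, 0.62 and 0.62, and RAD50 had -0.12. The 5 end joining genes past the minimum had medians of 0.08, -0.04 and -0.51. GADD45A, a p53 target induced by DNA damage, was called with 1.10 and had 1.19 in gene-rich and 0.78 in gene-poor cells, while BAX and MDM2, also p53 targets, had -0.57 and -0.44.

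Signalling genes of the primed state were higher in long cells in the list medians, at 0.48 for 5 Nodal genes and 0.34 for 11 FGF genes, and at 0.22 and 0.05 in gene-rich cells. All genes had medians of 0.14 and 0.04. In gene-rich cells the FGF list thus lay near the background, with 7 of 11 genes higher in long cells against 55.0% of all genes. TDGF1 belongs to both the Nodal and the core pluripotency list. FGF13, an intracellular FGF homologue, was the member called, with 1.43, 0.69 and 2.12. FGFR1, the receptor, had 0.60, 0.42 and 0.78, and was higher in long cells in 67.0% of pairs. Of 7 WNT genes 6 were higher in long cells with a median of 0.17, and 4 in gene-rich and 5 in gene-poor cells. The shares of all genes were 65.4%, 55.0% and 55.1%. CTNNB1 (beta-catenin) had 0.37 and TCF7L2 had -0.49. GDF3, a Nodal-related ligand, had 0.52 over all cells and -0.01 in gene-rich cells.

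Metabolic and housekeeping groups were close to level, and several lay below the background share of genes higher in long cells. Of 76 nuclear genes of oxidative phosphorylation past the minimum, 26 were higher in long and 50 in medium cells, against 34.6% of all genes higher in medium cells, with a median of -0.11. The members higher in long cells numbered 24 in gene-rich and 27 in gene-poor cells, with medians of -0.08 and -0.17. None was called over all cells or in gene-rich cells. In gene-poor cells 1 was called higher in long and 3 in medium cells, against 11.1% and 7.78% of all genes. NDUFS3 and NDUFB8, subunits of complex I, had -0.83 and -0.57, and UQCRFS1, of complex III, had 0.43. Of 19 genes of glycolysis and lactate metabolism, 14 were higher in long cells with a median of 0.15. In gene-rich cells 6 were, with -0.06, and in gene-poor cells 15, with 0.30. The shares of all genes were 65.4%, 55.0% and 55.1%. HK1 had -0.50 and PFKM 0.57.

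Ribosomal protein genes had a median of 0.02 over 77 genes, and mitochondrial ribosomal protein genes -0.05 over 77. RPL38, a protein of the large subunit, separated the groups by pairs although its difference was small. Its log2 level ran from 10.20 over 11.61 to 12.54 in long cells and from 10.45 over 11.94 to 12.75 in medium cells, and the long cell was higher in 30.2% of pairs. The difference of -0.32 was -0.32 in gene-rich and -0.36 in gene-poor cells. The study had listed RPL38 as negatively related to telomere length on these same cells, so these values are a description and not independent evidence. Proteasome genes (median -0.00 over 45) and splicing factors (-0.06 over 37) had medians near 0 over all cells. The 11 actin and thymosin genes had medians of -0.14, -0.10 and -0.23 in all, gene-rich and gene-poor cells. The median of all genes over all cells was 0.14. Of the 11, 4 were higher in long and 7 in medium cells, and their mean level was higher in the long cell in 37.0% of pairs. In gene-rich cells 35 of 45 proteasome genes (median -0.12) and 54 of 77 mitochondrial ribosomal protein genes (median -0.10) were higher in medium cells, against 44.9% of all genes, and in gene-poor cells 23 of 45 and 42 of 77. PSMD10, a proteasome assembly chaperone, was called higher in long cells with 1.03.

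The study itself listed 8 genes for each direction of relation with telomere length, on the cells used here, so their counts are not independent evidence. On the higher side 7 passed the minimum and all 7 were higher in long than in medium cells with a median of 0.64, against 6 of 7 in each set. UBQLN1, a ubiquitin-binding shuttle protein, had 1.13, 0.45 and 1.86 and the long cell was higher in 71.6% of pairs, whereas COMMD4 had 0.30, -0.33 and 0.94. On the lower side 6 passed and all 6 were lower in long cells with a median of -0.26.

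**Figure D5:**
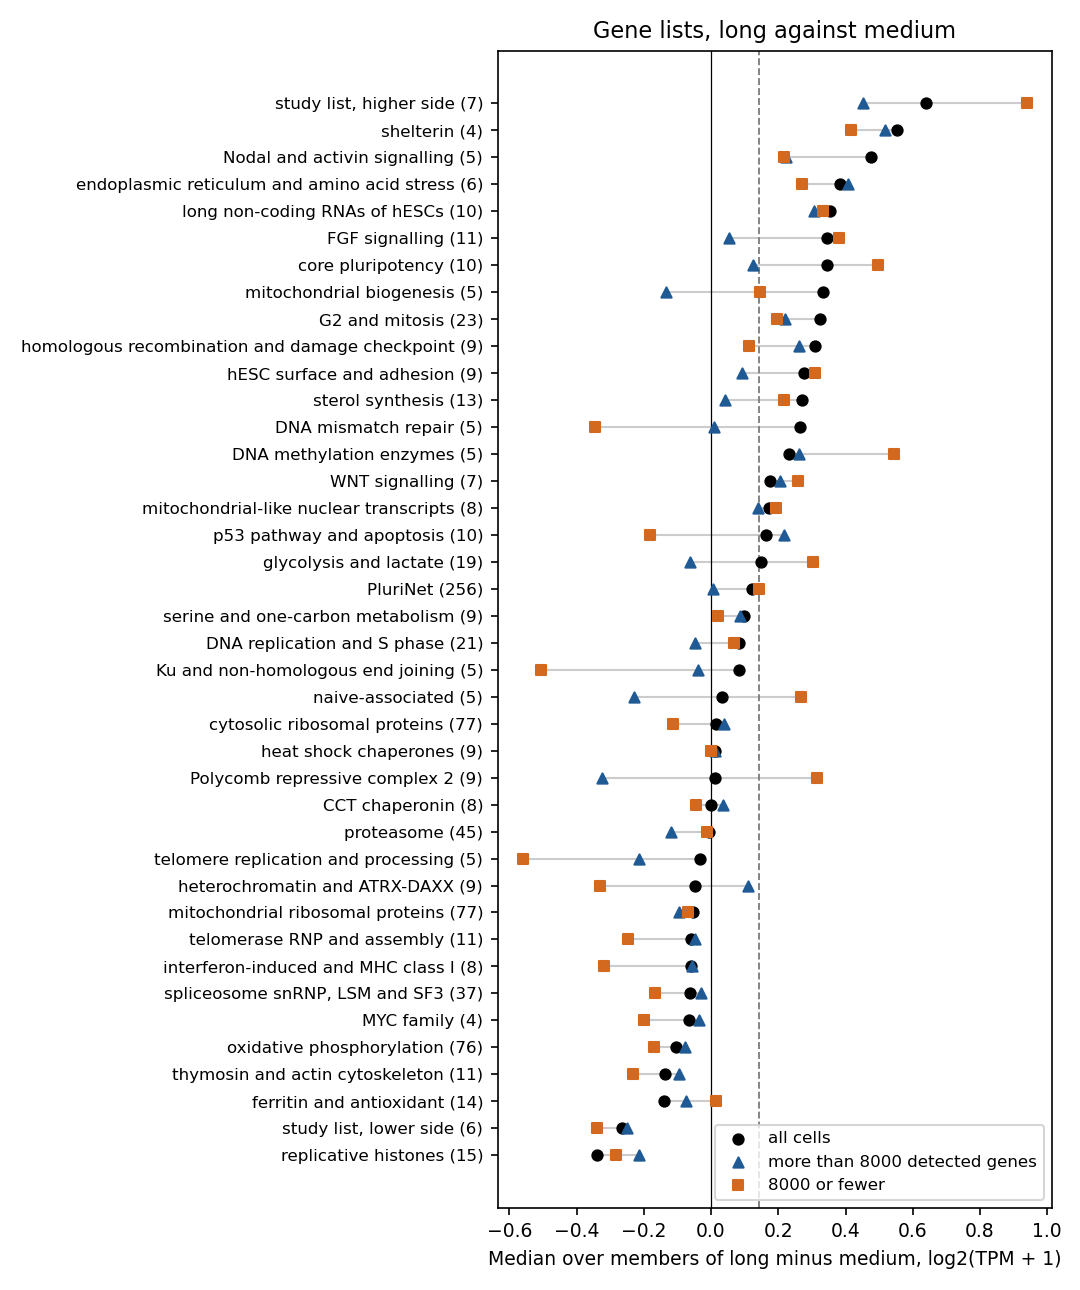
Median over the members of each gene list (number of members in brackets) of the difference of mean log2(TPM + 1), long minus medium (x axis), in all cells (black), gene-rich cells (blue) and gene-poor cells (orange), with the median of all 6128 genes over all cells as a dashed line. Shelterin, stress, long non-coding RNA, and G2 and mitosis lists lie above 0 in all 3 series, as do core pluripotency, Nodal, FGF and further lists. Oxidative phosphorylation and replicative histone lists lie below 0, as do telomerase, proteasome, splicing and further lists. The medians of several lists change sign between gene-rich and gene-poor cells.

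Short RNA genes were ranked apart, since a poly(A) library captures them as part of longer transcripts. The largest difference of all 6128 genes belonged to the row of MIR3198-2, with 2.42 over all cells, 2.24 in gene-rich and 2.65 in gene-poor cells. It was detected in 72.8% of long cells (61.8 to 82.1) and 40.0% of medium cells (21.1 to 61.3). The hairpin lies at chr12:54625181-54625260 of GRCh37, minus strand, inside an exon of CBX5, which itself differed by 0.03. The lowest value belonged to MIR3652, at chr12:104324203-104324333, plus strand, in an exon of HSP90B1, with -1.61, -0.10 and -3.21 (HSP90B1 -0.04). MIR367, at chr4:113569030-113569097, minus strand, in an exon of the MIR302 cluster host and an intron of LARP7, had -1.34, -1.65 and -1.12 and was detected in 14.8% of long (7.90 to 24.4) and 32.0% of medium cells (14.9 to 53.5). The mature products of these loci, from RefSeq on GRCh38.p14, are shown to identify them, with the 5p arm of miR-367 left out, 5′ to 3′ with the seed (bases 2 to 8) in capitals.
hsa-miR-3198: gUGGAGUCcuggggaauggaga
hsa-miR-3652: cGGCUGGAggugugagga
hsa-miR-367-3p: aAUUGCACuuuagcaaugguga
Their seeds differ from each other, and the sequencing did not measure the mature forms. The miR-367 locus belongs to a cluster characteristic of hESCs.

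Histone H4 genes illustrate rows that stay uncertain. HIST1H4K was higher in long cells with 1.60, 1.64 and 1.47, while HIST1H4C and HIST1H4J were higher in medium cells with -1.31 and -1.06. Their coding sequences are nearly identical, so counting could have split reads among them, and their transcripts mostly lack the poly(A) tail that was captured. RPL21P28, a ribosomal protein pseudogene, had the largest difference in favour of long cells outside short RNAs in gene-rich cells, 2.48, and -0.66 in gene-poor cells. It shares sequence with RPL21, which had -0.29 in gene-rich and -1.33 in gene-poor cells.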

How the data were processed

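The deposited table gave, for each of 121 single WA26 cells, expression in TPM that the authors had computed. The submitters' processing notes name TopHat2, RSEM and hg19, and the study's methods name HTSeq for counting, so the counting step is uncertain. Values had 2 decimals and summed to between 984910 and 996335 TPM per cell over the 25610 genes read. The table was ordered by symbol and ended at ZFR, and 1 line that was cut off was not read, so later genes were not analysed here.

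Cells were grouped by their titles. Values were taken as log2(TPM + 1), and 6128 genes that averaged 10 TPM or more over the 106 cells entered. Group means, SD across cells, differences (long minus medium) and percentages of long-medium pairs with the higher value in the long cell (ties as 0.5) were computed with Python 3.11.15, numpy 2.4.6, pandas 2.3.3 and scipy 1.17.1. No test was made, since TPM without counts, cultures or batches allows none. A difference of at least 1 counted as called. The difference adjusted for detected genes came from a linear fit over cells.

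Genes were named by rule: the 10 highest and 10 lowest differences over all cells and in gene-rich cells, the 10 each way that recurred most in both sets, list members past the fold or at either end of a list, shelterin and 8 chosen genes, with short or unnamed RNA genes ranked apart. Genes named for their percentage of pairs, RCC1, GMPR2, TRNAU1AP, FANCL and the host genes of miRNAs were added after the values were seen. Members and lists were chosen with earlier results of these data known. Alternatives were other pseudocounts, filters, scalings, group medians, sets of cells and fold sizes. Gene positions came from GENCODE on GRCh37, in which 92.1% of the 6128 genes were placed. The scripts were tested on simulated data.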

Additional observations from a re-analysis of the deposited data

How the results depend on the processing

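The number of calls depended on the setting. Over all cells, 111 genes higher in long and 41 higher in medium cells became 482 and 129 with a pseudocount of 0.1, 4 and 1 with a pseudocount of 10, 394 and 103 with group medians, 51 and 62 with detected genes as a covariate, 678 and 477 in cells with 8000 or fewer detected genes, and 1138 and 338 at a difference of 0.5. In gene-rich cells, 84 and 41 became 270 and 145, 3 and 1, and 133 and 81 under the first 3 of these, 130 and 91 with a mean TPM of at least 1 and also with no filter, and 597 and 342 at 0.5. With group medians, 45.3% of genes had the same sign in both sets, against 52.0%. The median of immediate early genes was 0.27 and became 2.16 with group medians. NME1-NME2 became 0.15 and RPA2 -0.35 in gene-rich cells, RPA2 -0.18 with group medians, and PEX7 -0.0013 and RPL21P28 -0.66 in gene-poor cells. The causes were not tested. Of 2264 values of named genes under alternatives, 2230 moved by less than 1 SD of the gene across cells without reversing a call. Likewise 375 of 376 list medians moved by less than 1 SD of the list's mean level. No gene differed by more than the larger of its SDs, so a difference could vanish within this limit, and these counts say little about stability. Another sign than over all cells was found for 162 of the gene values and 37 of the list medians. In the sets by detected genes alone this held for 76 of 506 gene values and 14 of 84 list medians. Of 56 named genes past the fold, 48 kept their sign under every alternative and the others did not. The median over all genes was 0.11 after median-ratio scaling over 902 genes, 0.16 without ribosomal protein, MIR and MTRNR2L genes, and 0.05 with the covariate. TERF1 stayed first by pairs under both scalings, at 75.8% and 77.6%. The planned limit of 4000 detected genes left out 0 long or medium cells, so its values equal the reported ones. No paired analysis was possible because the numbers in the titles only name cells and no test was made. Leaving out single cells was not run, since the groups exceed 5 cells. Orderings by pairs and the SNHG and HIST1H4 lists were chosen after seeing the data. Read depth per cell was not analysed here, and each group counts as 1 sample, so no difference has a replicate check.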

Other observations

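The spread of long and medium cells was close, with no common direction. The SD across cells was larger in medium than in long cells for 58.1% of 6128 genes, with a median log2 ratio of 0.04, for 53.6% in gene-rich cells, and for 42.1% in gene-poor cells, where the median log2 ratio was -0.05.

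By chromosome, the median difference over all cells ran from 0.00 for genes of chromosome 19, of which 50.2% were higher in long cells, to 0.24 for chromosome 3, of which 71.3% were. The order differed between sets of cells. In gene-rich cells the medians ran from -0.05 for chromosome 12 to 0.14 for chromosome X, with 0.01 for chromosome 19. In gene-poor cells they ran from -0.11 for chromosome 19 to 0.20 for chromosome 13.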
